A study of Mus musculus with 435 samples.

Results

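Of the 435 arrays of the series, 40 carried liver RNA of C57 mice on the high-fat diet in the weeks compared here, taken by their titles: 20 from weeks 5 and 6, and 20 from weeks 1 and 3, with 10 arrays a week. The 40 C57 low-fat arrays of the same weeks, 20 from weeks 5 and 6 and 20 from weeks 1 and 3, are shown beside them. The series itself followed 2 inbred strains, A/J and C57, under both diets, with liver expression measured on spotted 2-colour arrays. On each array liver RNA was labelled with Cy5, and a pool of RNA from 10 tissues of C57 mice, liver among them, was labelled with Cy3. The values are therefore log2 ratios of liver over pool. Each array was centred, so that 0 is the median of its tested probes, and a level of 1 is 1 log2 unit above it. The labels give no age or sex of the mice, no composition of the diets, and neither which arrays share a mouse nor which were hybridised together. The p-values thus measure the spread between arrays and weeks, part of which may be technical, and week of diet and week of processing cannot be told apart.

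The liver stores, makes, burns and exports fat. Fatty acids are built from acetyl units by Acaca and Fasn, made monounsaturated by Scd1, lengthened by the Elovl enzymes and joined to glycerol by enzymes such as Agpat2. They are broken down in mitochondria and peroxisomes, a programme under the nuclear receptor Ppara, or leave the cell in lipoproteins. The comparison asks which of these and other liver genes stood at another level after 5 to 6 weeks on the high-fat diet than after 1 to 3 weeks, and whether the low-fat livers moved too.

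The arrays carried liver RNA by their markers. All 18 tested genes of a hepatocyte list lay above the array median in each of the 4 sets of arrays, and their median level was 1.03 in high-fat weeks 5 and 6, against 0.75 in high-fat weeks 1 and 3. Of 15 skeletal and heart muscle genes 3 lay above the median in both high-fat periods. A pair of low-fat arrays of week 6 correlated at 0.0485 and 0.123 with the median of all arrays, against 0.372 to 0.769 for the other 78, and was left out. High-fat arrays held 4836 to 13639 measured probes. The median was 10625 in high-fat weeks 5 and 6, against 11654.5 in weeks 1 and 3, with the lowest weekly median, 7848.5, in week 6. Ratios at or below 0, which have no log, were 0.697% of measured values in high-fat weeks 5 and 6, against 0.118% in weeks 1 and 3. With ratios at or below 0 set to a floor, 1826 of 7859 probes passed an adjusted p of 0.05 in high-fat livers (limma). Without 3 arrays that measured under 50% of the tested probes, 1874 of 7882 passed. The main fit below had 1908 of 7796. The part of these differences in the results was not tested further. A gene's name is that given to its probe by the platform's gene table, and where 302 genes had a pair of tested probes, the high-fat differences had the same sign for 53.6%. Changes given below under a gene's name are those of the probe, and another probe of the gene could differ.

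Between the periods, 1908 of 7796 tested probes passed an adjusted p of 0.05 in the high-fat livers, or 24.5% (limma, week as a random block, Benjamini-Hochberg adjustment). Of these, 906 probes rose (11.6%) and 1002 fell (12.9%). In the low-fat livers 745 probes passed (9.56%), of which 354 rose (4.54%) and 391 fell (5.02%). The difference between the diets' changes was itself tested on the same probes, and limma called 0 of them after adjustment, with 382 (4.9%) at an unadjusted p under 0.05, where the low-fat change had 2009 (25.8%). On simulated arrays of the same size, 48 of 100 probes given a difference of 1 log2 unit between diets were called, so effects of that size could be missed. With single arrays as the units and no week block, 197 probes differed between the diets, 44 upwards and 153 downwards, and without week 5 there were 6. The counts leaned on week 1: without it 231 probes rose and 76 fell in high-fat livers, 307 in all, and 82 passed in low-fat livers. With 1 mean a week as the unit, 468 rose and 200 fell in high-fat livers. Of 128 genes named by rule from the high-fat contrast, 53 passed under every alternative that could test them. With weekly means as units 80 of the 128 passed, and lost calls are remarked below for some genes only. Of the 906 rises 444 passed with weekly means too, and of the 1002 falls 195. The 16 genes whose values per array follow passed in high-fat livers under every alternative that could test them. Counts of their arrays that lay beyond every early array are given without the share over all tested probes. They describe these genes only. The balance of rises and falls depended on the centring. Without it 554 probes rose and 1838 fell in high-fat livers, and with quantile normalization 1043 rose and 1672 fell. Uncentred, the median high-fat difference of all tested probes was -0.19, and changes are given relative to that shift. The high-fat counts of the gene lists below stand against 24.5% of all tested probes, and several lists lie under that share.

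Both diets shared many of their called probes. Of the 906 probes that rose in high-fat livers, 289 rose in low-fat livers too, which is 31.9% of the high-fat and 81.6% of the low-fat rises. Of the 1002 that fell, 257 fell in both, which is 25.7% of the high-fat and 65.7% of the low-fat falls. No probe passed in opposite directions. A probe that passed in 1 diet only was not shown to differ between diets, since 0 probes passed that test in the main fit. This holds for every gene below. The median difference of the high-fat rises was 0.93 in high-fat and 0.59 in low-fat livers, and that of the high-fat falls was -0.65 in high-fat and -0.41 in low-fat livers. Over all 7796 probes the 2 diets' differences had the same sign for 76.6% and a Pearson r of 0.80, as a description of probes that share the array design, the reference pool and the weeks.

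**Figure D1:**
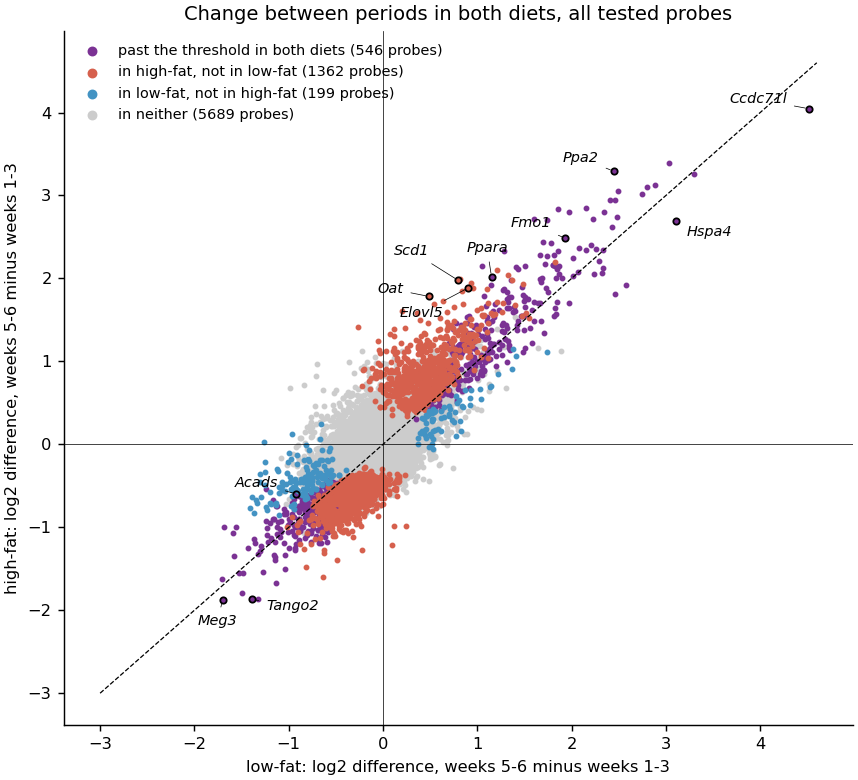
Log2 difference between weeks 5 and 6 and weeks 1 and 3 in high-fat livers (vertical axis) against the same difference in low-fat livers (horizontal axis), 1 point a tested probe, coloured by the diets in which it passed the threshold. The dashed line marks equal differences. Most coloured points lie in the quadrants where both diets rose or both fell, and 289 rises and 257 falls passed in both.

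Among genes of fat synthesis the rises included a desaturase and an elongase, while enzymes of the first steps fell or did not pass. Of 18 tested members of the list, 4 rose and 2 fell, with a median difference of -0.05 against -0.002 for all tested probes, and 4 rose and 4 fell with no centring. Scd1, the desaturase, read 0.50, 2.57 and 3.73 (lowest, median and highest of 20 arrays) in high-fat weeks 5 and 6, and -1.13, 0.84 and 1.54 on 20 arrays of weeks 1 and 3. Of the 20 later arrays, 17 lay above every early one. Its high-fat difference was 1.98 (SE 0.30, adjusted p = 1.68e-06, limma), a 3.93-fold rise. In low-fat livers Scd1 read -0.18, 0.72 and 1.78 on 15 arrays of weeks 5 and 6, and -0.81, -0.16 and 0.87 on 18 arrays of weeks 1 and 3. The low-fat difference was 0.80 (SE 0.32, adjusted p = 0.093), and 1.18 separated the diets' changes (95% interval 0.31 to 2.04 before adjustment, adjusted p = 0.973, and 0.029 with single arrays as the units).

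Elovl5, which lengthens polyunsaturated fatty acids, read 0.40, 1.48 and 2.50 on 14 high-fat arrays of weeks 5 and 6, and -2.30, -0.24 and 0.84 on 19 arrays of weeks 1 and 3. Its high-fat difference was 1.89 (SE 0.31, adjusted p = 8.46e-06), and 12 of the 14 later arrays lay above every early one. In low-fat livers it was 0.90 (SE 0.32, adjusted p = 0.0575). Agpat2, which makes phosphatidic acid, rose by 0.89 (adjusted p = 0.00175), and Insig2, which holds the sterol regulatory factors in the endoplasmic reticulum, rose by 1.15 (adjusted p = 0.00306). Agpat2 did not pass without week 1, nor Insig2 without week 3. Insig2 also rose in low-fat livers, by 0.97. Acaca, the first committed enzyme of synthesis, fell by 0.62 and Fasn, the synthase, fell by 0.38. Neither fall passed with weekly means as units, and neither gene fell past the threshold in low-fat livers. Genes of the list that did not pass included Acly at -0.18, Fads1 at 0.51, Fads2 at -0.25 and Dgat2 at -0.02. Of the cholesterol synthesis genes 3 could be tested, Mvk, Fdft1 and Ebp, and none passed.

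**Figure D2:**
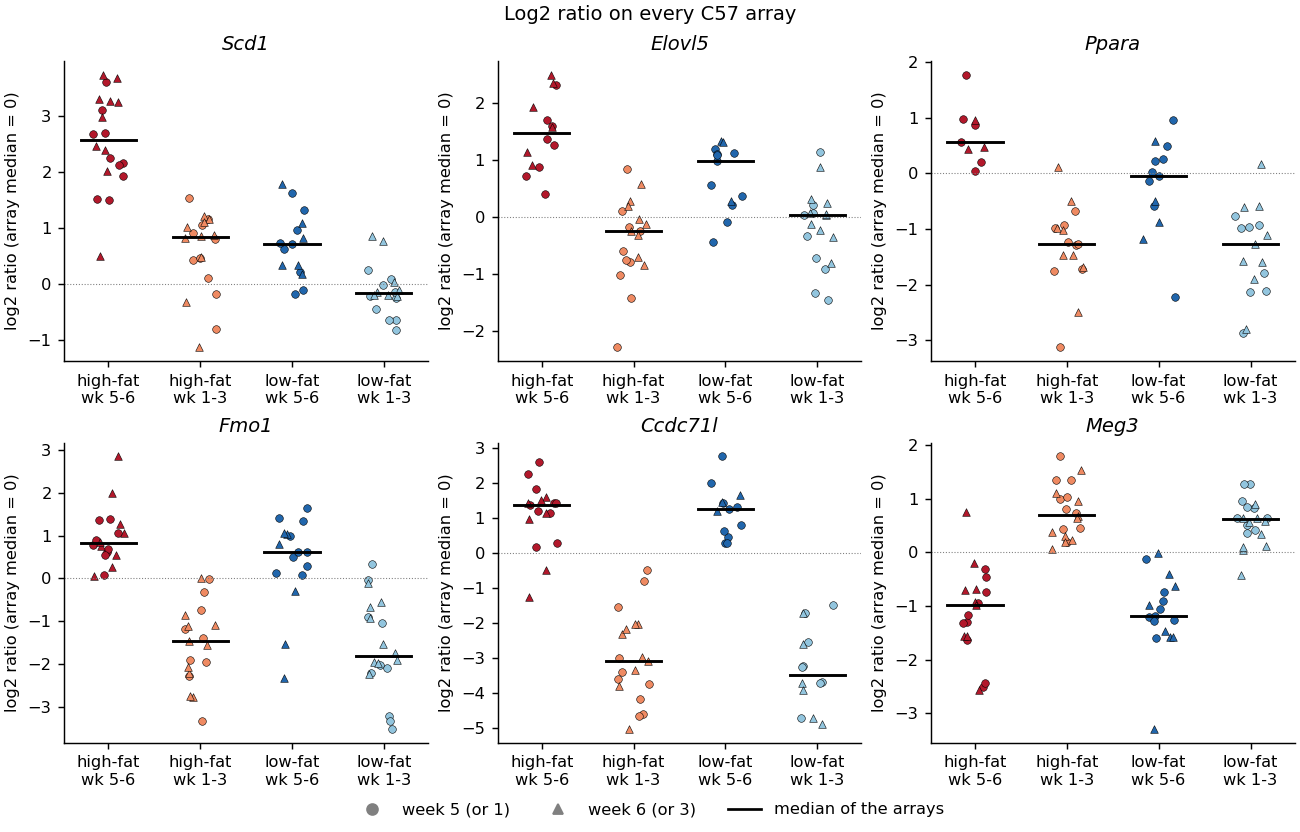
Log2 ratio of liver over the tissue pool on every array that measured the gene, for 6 genes, in high-fat and low-fat livers of weeks 5 and 6 and of weeks 1 and 3. Bars are medians, and circles and triangles separate the 2 weeks of a period. Scd1 had medians of 2.57 and 0.84 in the high-fat periods and 0.72 and -0.16 in the low-fat ones, while Fmo1 and Ccdc71l rose and Meg3 fell in both diets.

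For fatty acid oxidation 4 of 24 tested genes rose and 1 fell in high-fat livers, with a median of -0.04, and 1 rose and 2 fell in low-fat livers. The high-fat calls were 20.8% of the list, against 24.5% of all tested probes. With no centring 4 rose and 3 fell in high-fat livers, and with quantile normalization 4 rose and 2 fell. Ppara read 0.05, 0.56 and 1.78 on 9 high-fat arrays of weeks 5 and 6, and -3.13, -1.28 and 0.11 on 17 arrays of weeks 1 and 3. Of the 9 later arrays, 8 lay above every early one. Its high-fat rise was 2.02 (SE 0.39, adjusted p = 0.000141), and in low-fat livers it rose by 1.15 (SE 0.37, adjusted p = 0.0367). Ech1, which moves double bonds in unsaturated acids, read -0.59, 0.23 and 1.51 on 17 high-fat arrays of weeks 5 and 6, and -2.71, -0.68 and 0.22 on 20 of weeks 1 and 3, a rise of 1.09 (SE 0.23, adjusted p = 0.000356). Echs1, the enoyl hydratase, rose by 0.83 but did not pass without week 1, without week 3 or with weekly means as units, and Cyp4a14, an omega-hydroxylase under Ppara, rose by 1.39 in high-fat livers, where its low-fat difference was 0.12. Acads, the short-chain dehydrogenase, fell by 0.60 in high-fat and by 0.92 in low-fat livers. Its high-fat fall did not pass with weekly means as units. The carnitine enzymes did not pass, with Cpt1a at -0.02 and Cpt2 at -0.30.

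Of 14 genes of fat uptake, transport and droplets, 2 rose and 1 fell, or 21.4% called against 24.5% of all tested probes. Slc27a5, which takes up fatty acids and activates bile acids, rose by 0.73, Plin3, a droplet coat protein, rose by 0.67, and Abhd5, the activator of triglyceride lipase, fell by 0.65. The low-fat differences of Plin3 and Abhd5 were -0.03 and -0.46, and neither passed. With no centring 1 gene of this list rose and 5 fell, and with quantile normalization 3 rose and 4 fell. Neither Plin3 nor Abhd5 passed with weekly means as units or without week 1, week 3 or week 5, and Slc27a5 did not pass without week 1. Cd36 was at 0.30 and did not pass. Among 14 lipoprotein genes 12 had a high-fat difference above 0, and 2 rose and 1 fell, where all tested probes lay above 0 in 49.7%. In low-fat livers 9 of the 14 lay above 0 and 2 rose, and the list medians were 0.39 in high-fat and 0.40 in low-fat livers. With no centring 1 rose and 1 fell in high-fat livers, with a median of 0.18. Apoa5, which promotes triglyceride clearance, rose by 1.39 (SE 0.34) and Apoa1, the main protein of high-density lipoprotein, by 0.83 (SE 0.29), while Scarb1, its receptor, fell by 0.44 (SE 0.14). Apoa5 did not pass without week 1. Apoa1 and Scarb1 passed neither without week 1 nor with weekly means as units, and each lost its call under further alternatives, which for Apoa1 included no centring, quantile normalization and leaving out week 3. In low-fat livers Apoa1 rose by 1.05. Abcb4, which exports phospholipid into bile, rose by 1.00 in high-fat livers.

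Of 15 tested genes of sugar metabolism 9 passed, with 5 rises and 4 falls. With no centring these were 2 and 4, and with weekly means as units 2 and 2. Pgk1 (1.16), Pgam1 (0.98) and Tpi1 (0.54) of glycolysis, Fbp1 (0.73) of glucose production, and Taldo1 (0.61) of the pentose phosphate route rose. Gbe1 (-0.98), the glycogen branching enzyme, Tkt (-0.80), also of the pentose phosphate route, and Pfkl (-0.63), the liver phosphofructokinase, fell. Gapdh stood for the fourth fall at -1.25 by the probe measured on most arrays, but its 6 probes ran from -1.25 to 1.62, with 1 called in each direction. Pgk1 rose and Pfkl fell in low-fat livers too, by 1.14 and 0.76.

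Amino acid and urea metabolism gave 5 rises and 1 fall among 18 genes in high-fat livers, and 2 rises in low-fat livers. With no centring the high-fat counts were 3 and 3. Oat, ornithine aminotransferase, read 0.57, 1.50 and 1.90 on 12 high-fat arrays of weeks 5 and 6, and -1.35, -0.29 and 0.50 on 19 of weeks 1 and 3. It rose by 1.78 (SE 0.31, adjusted p = 2.61e-05) there, and its low-fat difference was 0.49 (SE 0.32, adjusted p = 0.321). The difference between the diets' changes of Oat did not pass (limma, adjusted p = 0.973, and 0.029 with single arrays as the units). Got2, the mitochondrial aspartate aminotransferase, read 0.04, 0.94 and 1.64 on 20 high-fat arrays of weeks 5 and 6, and -0.65, -0.07 and 0.61 on 20 of weeks 1 and 3. It rose by 0.95 (SE 0.18) in high-fat and by 0.63 in low-fat livers. Otc and Asl of the urea cycle rose by 1.23 and 0.60, and Mat1a, which makes S-adenosylmethionine, by 0.90. Agxt, which detoxifies glyoxylate, fell by 1.02.

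The list with the most rises held oxidising and conjugating enzymes for drugs and steroids. Of 37 tested genes 16 rose and 2 fell, with a median of 0.49. In low-fat livers 7 rose and 1 fell, with a median of 0.26. With no centring the high-fat counts were 12 and 5 and the median 0.33. Fmo1, a flavin monooxygenase, read 0.07, 0.82 and 2.86 on 18 high-fat arrays of weeks 5 and 6, and -3.35, -1.48 and 0.01 on 19 of weeks 1 and 3. It rose by 2.48 (SE 0.43, adjusted p = 1.64e-05) in high-fat and by 1.93 in low-fat livers. Aldh1a7, an aldehyde dehydrogenase, read 0.87, 1.81 and 3.25 on 17 high-fat arrays of weeks 5 and 6, and -1.33, -0.15 and 1.16 on 20 of weeks 1 and 3. It rose by 2.15 (SE 0.30, adjusted p = 4.58e-07) in high-fat and by 1.05 in low-fat livers. Nqo1, a quinone reductase, rose by 1.42 in high-fat and by 0.96 in low-fat livers. Fmo5 rose by 1.05 in high-fat livers and was at 0.15 in low-fat ones. The difference between these changes did not pass (limma, adjusted p = 0.973, and 0.00967 with single arrays as the units). In A/J livers, not tested here, Fmo5 differed by 0.70 with high-fat and 1.11 with low-fat feeding. Cyp2b13 and Gstt2 fell by 0.78 and 0.51 in high-fat livers. Several of these families hold near-identical members, such as Cyp2b, Cyp2c, Gsta and Gstm, and how far their probes tell members apart is not stated.

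Of 17 antioxidant genes 3 rose: Txn1 (thioredoxin) by 2.17, Prdx1 by 0.72 and Hmox1 by 0.62. That was 17.65% of the list called, against 24.5% of all tested probes. With no centring 1 rose and 3 fell, and neither Prdx1 nor Hmox1 passed then or with weekly means as units. Txn1 also rose in low-fat livers, by 1.72. Among other secreted and regulatory liver genes, Ghr, the growth hormone receptor, rose by 1.53 and Ttr, the thyroxine carrier, by 1.29. Ttr read 1.17, 1.97 and 2.94 on 19 high-fat arrays of weeks 5 and 6, and -0.14, 0.76 and 1.39 on 20 of weeks 1 and 3, and 17 of the 19 lay above every early array. Ghr and Ttr rose by 1.18 and 1.11 in low-fat livers. Of 17 acute phase and complement genes 3 rose and 1 fell, with C2 at 1.65 and Fgb, a fibrinogen chain, at -0.57, and with no centring 3 rose and 3 fell. Of 24 transcription regulators 4 rose and none fell in high-fat livers: Ppara, Esrra (1.55), Cebpb (1.27) and Rxrb (0.92). These were 16.7% of the list, against 24.5% of all tested probes called. With no centring 4 rose and 2 fell. In low-fat livers 5 of the 24 rose.

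Among genes of protein synthesis 13 of 39 cytosolic ribosomal proteins rose and 4 fell, with a median of 0.40. With no centring 10 rose and 6 fell, and with quantile normalization 12 rose and 7 fell. Rpl35 read -0.64, 0.09 and 1.85 on 14 high-fat arrays of weeks 5 and 6, and -2.52, -1.10 and -0.38 on 20 of weeks 1 and 3, a rise of 1.48 (SE 0.24, adjusted p = 8.77e-06). Rpl3 and Rpl26 rose by 1.48 and 1.49, and Rpl11 fell by 1.00. In low-fat livers 4 of the 39 rose and 1 fell. Of 36 mitochondrial ribosomal proteins 4 rose and 4 fell, against 2 and 10 with no centring and 3 and 10 with quantile normalization. The calls of the main fit were 22.2% of the list, against 24.5% of all tested probes. Of 46 respiratory chain and ATP synthase genes 8 rose, Atp5pb (1.34) and Ndufa6 (1.20) among them, and 4 fell, among them Uqcrb (-0.97) and Ndufa12 (-0.83). These respiratory counts were 7 and 9 with no centring. Both called genes of the 11 in the tricarboxylic acid cycle fell: Dlst by 1.00 and Idh2 by 0.59. With weekly means as units neither Idh2 nor Rpl11 passed.

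In the endoplasmic reticulum list 6 of 29 genes rose and 3 fell, against 4 and 4 with no centring. Xbp1, a transcription factor of the unfolded protein response, rose by 1.52 (SE 0.41, adjusted p = 0.00444) and Dnajb9, a chaperone under it, by 0.64, and in low-fat livers they were at 0.60 and 0.12 without passing. The high-fat rise of Xbp1 did not pass without week 1. Fkbp11 rose by 1.16 by 1 probe, and its other probe was at -0.18. Creld2 fell by 0.43, and neither Creld2 nor Dnajb9 passed with weekly means as units. Of 19 cytosolic chaperones 2 rose and 2 fell. Hspa4 rose by 2.69 in high-fat and by 3.10 in low-fat livers and Dnajb1 by 1.00 and 1.08, while Hspa2 and Bag3 fell by 0.76 and 0.54 in high-fat livers. Neither of these falls passed with weekly means as units.

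Genes of protein turnover and of the cell cycle moved both ways as well. Of 23 proteasome genes 4 rose and 2 fell in high-fat livers. Psme1, an activator subunit, rose by 1.38 and Psmb7, a core subunit, by 1.03, and both also rose in low-fat livers, while Psmd14, a lid subunit, fell by 0.66. Of 21 translation factors 4 rose and 3 fell, with Pabpc1, which binds the poly(A) tail, at 1.43 and Eif4g2 at 1.13. Of 21 genes of cell division and DNA replication 3 rose and 2 fell, or 23.8% called against 24.5% of all tested probes. Rrm2, a subunit of ribonucleotide reductase, rose by 2.95, Birc5 by 0.71 and Cdk4 by 0.69, and Cdc20 fell by 0.67. With no centring the proteasome had 2 rises and 2 falls, the translation factors 2 and 4, and the cell division genes 2 and 5. Of 10 clock genes Clock fell, by 0.66 in high-fat and by 0.56 in low-fat livers, and the other 9 did not pass. With weekly means as units Psmd14, Birc5, Cdk4, Cdc20 and Clock did not pass in high-fat livers. Of 12 genes of bile acid and sterol disposal 2 rose, Abcb4 and Slc27a5. Of 11 coagulation genes Ahsg, fetuin, rose by 0.64 but passed neither with no centring nor with weekly means as units, and with no centring none of the 11 rose and 1 fell. Of 5 secreted and growth hormone dependent genes Ghr rose.

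**Figure D3:**
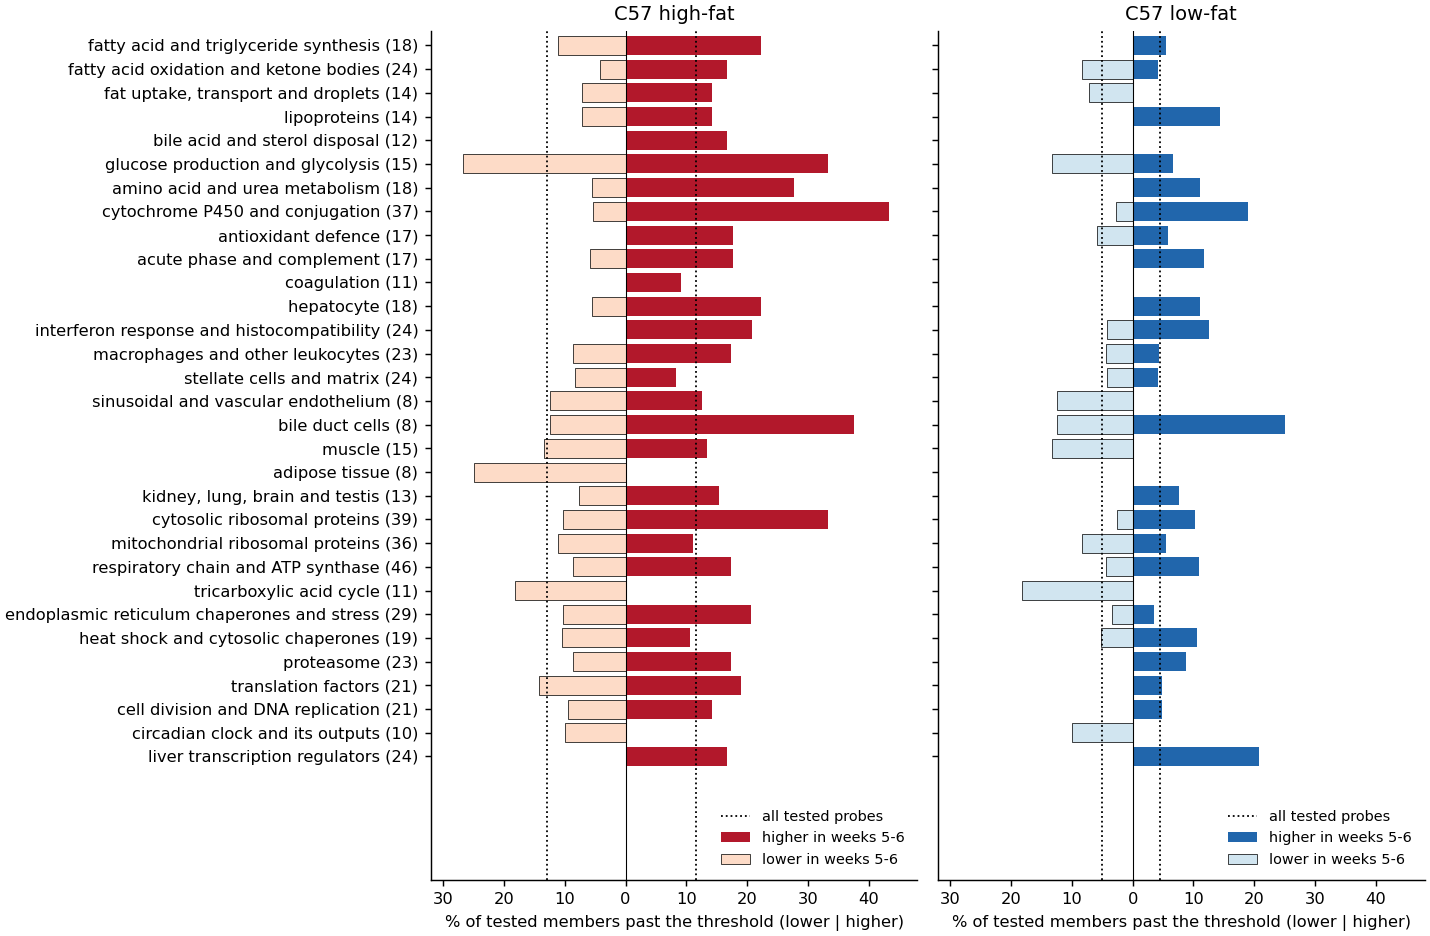
Share of the tested members of each gene list (number in brackets) that passed the threshold as higher (right of 0) or lower (left of 0) in weeks 5 and 6, in C57 high-fat and C57 low-fat livers. Dotted lines are the shares over all tested probes, 11.6% higher and 12.9% lower in high-fat, and 4.54% and 5.02% in low-fat livers. Drug and conjugation enzymes (16 higher, 2 lower of 37) and cytosolic ribosomal proteins (13 and 4 of 39) had higher shares of rises than the probes at large, and 9 of the 15 sugar metabolism genes passed, all in the centred fit.

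The 12 largest high-fat rises held no gene of the hepatocyte list. With 18 tested genes of that list among 7796 tested probes, none would be likely among any 12. They were Ccdc71l, Rnf19a, Ppa2, Sag, Cdc42, Ifnar1, H2-Oa, Zfp131, Rrm2, Rac1, Vcam1 and Il6, with differences from 4.05 down to 2.83. Ccdc71l read -1.25, 1.37 and 2.60 on 17 high-fat arrays of weeks 5 and 6, and -5.03, -3.09 and -0.49 on 19 of weeks 1 and 3. It rose by 4.05 (SE 0.48, adjusted p = 1.39e-08) in high-fat and by 4.52 in low-fat livers. Rnf19a, a ubiquitin ligase, read -1.13, 0.58 and 1.36 on 12 high-fat arrays of weeks 5 and 6, and -5.44, -3.05 and -1.18 on 14 of weeks 1 and 3. Ppa2, the mitochondrial pyrophosphatase, read 0.41, 1.19 and 1.99 on 18 high-fat arrays of weeks 5 and 6, and -3.61, -2.16 and -0.25 on 20 of weeks 1 and 3. All 12 also rose in low-fat livers, where Sag, an arrestin of the retina, rose by 3.30, Vcam1, an adhesion molecule, by 2.16 and Il6, a cytokine, by 1.86. For each of the 12 the early levels lay below the array median, from -3.50 to -1.03 in the weekly means of weeks 1 and 3.

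The 12 largest falls were smaller. They were Meg3, Tango2, 3110040N11Rik, Ksr1, Elk4, Gsg1, Rlim, Enpp5, Phf19, Scn10a, Hapln3 and Ebi3, with differences from -1.88 to -1.48. Meg3, an imprinted non-coding RNA, read -2.57, -0.98 and 0.75 on 19 high-fat arrays of weeks 5 and 6, and 0.06, 0.71 and 1.79 on 20 of weeks 1 and 3. It fell by 1.88 (SE 0.28, adjusted p = 1.68e-06) in high-fat and by 1.70 in low-fat livers. Tango2 read -2.67, -1.60 and -0.24 on 20 high-fat arrays of weeks 5 and 6, and -0.71, 0.12 and 1.10 on 20 of weeks 1 and 3, and 19 of the 20 lay below every early array. 3110040N11Rik read -1.83, -0.94 and 0.00 on 12 high-fat arrays of weeks 5 and 6, and -0.65, 1.02 and 2.38 on 18 of weeks 1 and 3. In low-fat livers 10 of the 12 fell, and Rlim (-0.64) and Ebi3 (-0.82) did not pass. The largest changes of the low-fat livers were the rises of Ccdc71l, Sag, Hspa4 and Rnf19a and the falls of Meg3, Gsg1, Robo4 and 9130401M01Rik, and these last 2 also fell in high-fat livers, by 1.00 and 1.07.

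Genes of other cell types moved in both directions, and since the arrays measured whole liver, more cells of a type and more RNA per cell cannot be told apart. Of 23 leukocyte genes 4 rose, among them Lsp1 (1.95), C1qa (1.13) and Itgb2 (1.09), and 2 fell, among them Cxcr4 (-0.83), and with no centring 2 rose and 4 fell. The mean of the list ran from -0.50 to 0.20 over high-fat arrays of weeks 5 and 6, and from -0.77 to -0.06 over those of weeks 1 and 3. Of 8 bile duct genes Krt8 (2.33), Krt19 (0.82) and Cldn7 (0.62) rose and Krt7 (-0.57) fell, where with no centring 1 rose and 2 fell. Their mean ran from -0.52 to 0.68 over high-fat arrays of weeks 5 and 6, and from -0.71 to 0.15 over those of weeks 1 and 3. With weekly means as units Krt19, Cldn7 and Krt7 did not pass. Of 24 stellate cell and matrix genes 2 rose and 2 fell, and of 8 endothelial genes 1 rose and 1 fell. With no centring these were 1 and 4, and 0 and 1. Of 24 interferon and histocompatibility genes 5 rose and none fell, with Igtp at 2.34 in both diets. With no centring 4 rose and 4 fell, and with quantile normalization 6 rose and 3 fell. Of 15 muscle genes 2 rose, Tnnc1 (1.07) and Pygm (0.56), and 2 fell, Tpm1 (-1.25) and Casq1 (-1.20), and with no centring none rose and 3 fell. Of 13 genes of kidney, lung, brain and testis 2 rose, Akap4 (1.87) of sperm and Syp (1.56) of synapses, and Tnp2 fell by 0.62, against 2 rises and 3 falls with no centring. Of 8 adipose genes Cox7a1 and Cox8b fell by 0.95 and 0.55. No red cell marker could be tested. The part of these markers in the other results was not tested.

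The largest rises appeared between weeks 4 and 5 in every group of strain and diet. The median level of the 12 high-fat rises was -2.19 in week 1, -1.96 in week 3, -1.43 in week 4, 1.18 in week 5, 1.12 in week 6, 0.81 in week 7, -0.76 in week 9, -0.57 in week 10 and -1.84 in week 11 of C57 high-fat livers, where 9 of the 12 genes had a value in week 10 and 10 in week 11. In C57 low-fat livers it was -1.76 in week 4 and 0.95 in week 5. In A/J livers it was -1.81 and 1.20 in those weeks on the high-fat diet, and -0.93 and 1.01 on the low-fat diet. Of the high-fat rises 94.4% of 905 probes had the same sign in A/J high-fat and 94.6% in A/J low-fat livers, and of the falls 95.4% and 96.9% of 1002. Over all tested probes with values these shares were 74.6% in A/J high-fat and 77.2% in A/J low-fat livers. The course of Scd1 in C57 high-fat livers was 0.55, 0.61, 1.42, 2.36, 2.76 and 1.37 in weeks 1, 3, 4, 5, 6 and 7. In C57 low-fat livers it was -0.28, 0.11, 0.32, 0.66, 0.76 and 0.80. The diet groups also differed in week 0, where Scd1 read 0.331 on 9 high-fat and -0.255 on 6 low-fat C57 arrays. In A/J livers of week 0 it read 0.21 and -0.934. In weeks 9, 10 and 11 it was 1.06, 1.56 and 1.45 in C57 high-fat livers, and 0.44, -0.03 and 0.33 in C57 low-fat livers. For Scd1 the A/J differences between the same periods, which were not tested here, were 1.53 with high-fat and -0.10 with low-fat feeding, and for Elovl5 1.58 and 0.39.

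**Figure D4:**
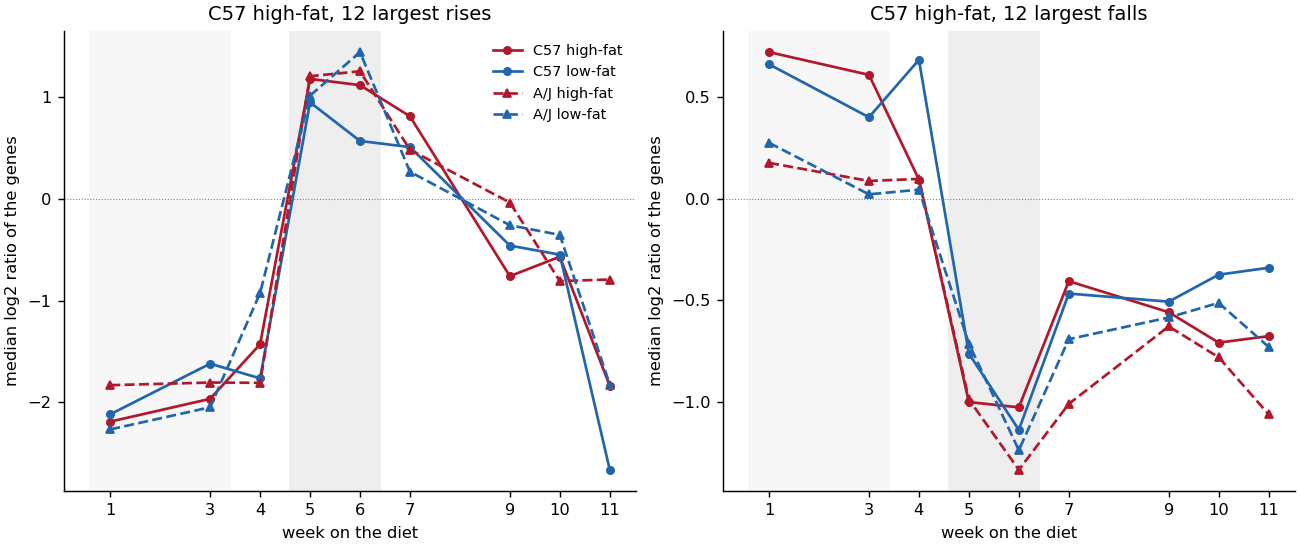
Median log2 ratio by week on the diet of the 12 genes with the largest rises (left) and the 12 with the largest falls (right) of C57 high-fat livers, in C57 and A/J livers on both diets. Shading marks weeks 1 to 3 and weeks 5 to 6. The genes were chosen on C57 high-fat weeks 1, 3, 5 and 6. In all 4 groups the rises went above 0 at week 5 and the falls went below it. Week 8 is not drawn because 28 of its 40 arrays correlated below 0.15 with the median of all arrays.

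For genes with 2 tested probes, 1 probe said little about the other. Most genes named above had only 1 tested probe, so this check could not be made for them. The Pearson r between the high-fat differences of the 2 probes of a gene was 0.056. Of 302 genes with 2 tested probes, all but 3 with probes from different accessions, 162 had high-fat differences of the same sign (53.6%), and the probes' values over arrays had a median correlation of 0.01. Both probes passed for 16 of these genes, in the same direction for 8. Among 8 genes with at least 6 probes of 1 accession the signs agreed to different degrees. Eif4a2, a translation initiation helicase, had 12 of 13 probes below 0 with a median of -0.57, of which 1 passed. Ldha, lactate dehydrogenase, had 12 of 14 above 0 with a median of 0.29 and none past the threshold. All 11 of Cyc1, cytochrome c1, lay above 0, and none passed. Nup62 had 4 probes above 0 and 4 below, and Gapdh 2 above and 4 below. Pairs of such probes had median correlations over arrays from 0.32 for Nup62 to 0.61 for Eif4a2. Scd1 and the other genes with values per array above had 1 tested probe each, except Meg3, whose other probe was at -0.17. Among the 12 largest falls Elk4, Phf19 and Rlim also had another probe, at -0.27, 0.20 and 0.15, and none of these passed.

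**Figure D5:**
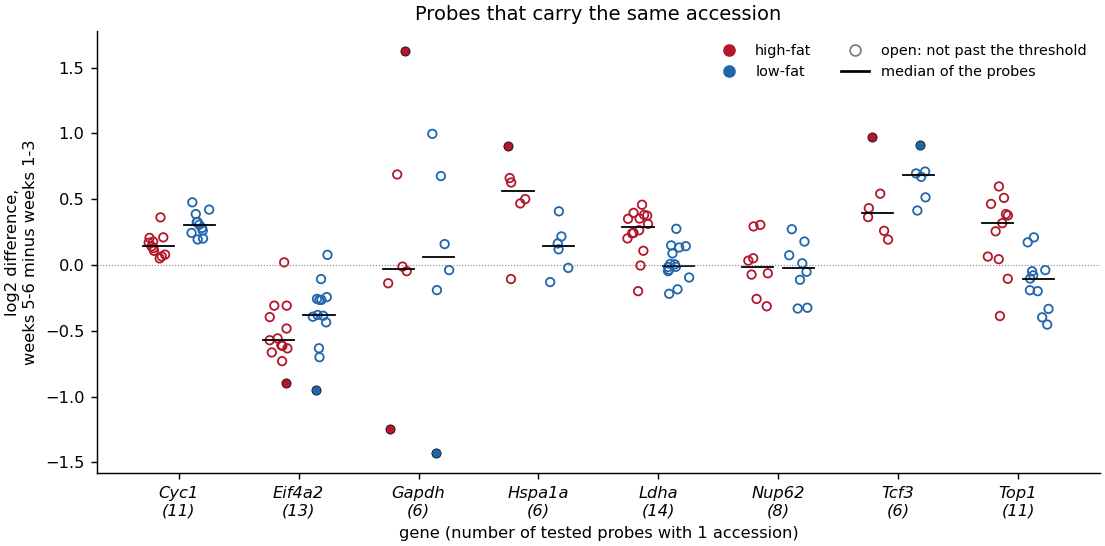
Log2 difference between weeks 5 and 6 and weeks 1 and 3 for the 8 genes with at least 6 tested probes of 1 accession, 1 point a probe, in high-fat and low-fat livers. Filled points passed the threshold and bars are medians. Probes of Cyc1 ran from 0.05 to 0.36 and those of Gapdh from -1.25 to 1.62 in high-fat livers.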

How the data were processed

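Liver RNA of C57 mice was measured on 80 arrays, 10 for each of 2 diets and 4 weeks, of which 78 were fitted. Values are the authors' deposited ratios of liver over pooled reference on a linear scale, which average 1 on every array. Image analysis, background treatment and normalization are not given in the sources used here, and signal intensities were not used here. Each period held 2 weeks of a diet, so the number of weeks limits the precision as well as the number of arrays. Log2 values were taken from the deposited ratios, with values at or below 0 (0.337%) treated as not measured and 38.4% of cells empty. Of 17280 probes, 14711 had 1 symbol in the platform's gene table, with 14416 updated through mouse gene records of GRCm38.p6.

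Probes with 1 symbol, measured on at least 70% of the arrays and on at least 3 of each group of diet and week, were tested (7796). Each array was centred on its median over these probes. The model, with 4 levels (diet by period), was fitted by limma 3.58.1 (R 4.3.3), with the 8 groups of diet and week as a random block (duplicateCorrelation, consensus correlation 0.102). All tested probes entered the Benjamini-Hochberg adjustment. In simulated data the high-fat contrast called 80 of 100 probes given a change of 1 and 26 of 100 given 0.5. The simulated errors were normal, with 1 week correlation for every probe, as the fit assumes. Shares in the real data, also for the difference between diets, may thus be lower. The 34 gene lists, the alternatives and the naming rule were chosen with earlier results of these data known. The rule takes the 12 largest rises and falls that passed and had 1 sign in all 4 pairs of weeks, up to 4 members of each list by smallest p, Scd1, and up to 4 low-fat changes a direction. Other list members were named after their values were seen. A gene in a list is the probe measured on most arrays. Alternatives changed the centring, the unit of replication, the filters, the arrays and the weeks kept. Figures were drawn with matplotlib 3.10.9. Titles number samples alike in both diets. Deviations of same-numbered arrays correlated above 0.1 in 15 of 38 pairs, so the numbers were not taken to pair arrays.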

Additional observations from a re-analysis of the deposited data

Results flagged for a closer look

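In 16 genes with values given per array, 124 groups of 4 to 10 arrays of 1 diet and week were examined for an array far from the rest, and chance alone flags about 1 in 20. The array found lay lowest in 7 cases. Scd1 read 0.50 on 1 array of high-fat week 6, against 2.02 to 3.73 on the other 9. Got2 read 0.04 on 1 array of high-fat week 6, against 0.90 to 1.40 on the others. Ppara read -3.13 on 1 array of high-fat week 1, against -1.76 to -0.67, and -2.22 on 1 array of low-fat week 5, against -0.58 to 0.96. Ech1 read -2.71 on 1 array of high-fat week 3, against -0.90 to -0.24. Oat read -2.78 on 1 array of low-fat week 1, against -1.05 to -0.04. Ttr read -0.21 on 1 array of low-fat week 6, against 1.43 to 2.52. The array lay highest in 2 cases. Aldh1a7 read 3.05 on 1 array of high-fat week 5, against 0.87 to 1.91, and Rpl35 read 0.95 on 1 array of that week, against -0.64 to -0.02.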

How the results depend on the processing

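None of the 128 genes named by rule from the high-fat contrast changed direction under any alternative that tested it. These genes were chosen on the same arrays, so a kept direction is no independent check. For the largest rises and falls the rule also required the same sign in every pair of weeks. Weekly means and fits without a week could therefore not reverse those genes. Of the 128 genes 53 stayed past the threshold under every alternative that could test them, and 58 without week 1. The count of high-fat probes past the threshold, 1908, was 3439 with single arrays as units, 668 with weekly means as units, 1065 among 4310 probes measured on 90% of arrays and 835 among 3303 measured on 7 arrays of every group, a filter added after seeing the data. Leaving out 1 week at a time it ran from 307 to 2587. The low-fat count, 745, was 1211 with no centring, 1805 with quantile normalization, 2591 with single arrays, 232 with weekly means, 432 and 300 under those filters, and 1318 with low-fat arrays fitted alone. Without 1 week it ran from 82 to 1237. The difference between diets, 0 probes, was 197 with single arrays and ran from 0 to 6 without 1 week. With the sample number as a replicate block it stayed at 0 (1161 before adjustment), and 7 of 76 arrays correlated best with the array of their own number. Other alternatives kept each count within 1.5 times. The causes were not tested, apart from the smaller number of probes under the filters. Arrays of 1 week may share a mouse or a hybridisation, and week 6 arrays measured fewer probes.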
